A study of Capra hircus with 9 samples.

Results

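Transcripts of the salivary mucins and of ZG16B, a small secreted lectin-like protein of saliva, were followed in goat submandibular gland at 3 ages. The 7 genes were chosen by name from the 21663 genes of the table, as the secreted mucins MUC19, MUC5B and MUC7 with ZG16B (4 genes) and the membrane-bound mucins MUC1, MUC4 and MUC20 (3 genes). Together they held 17 transcript rows, of which 10 were transcripts newly assembled by the authors and 7 were RefSeq transcripts. Of these rows, 14 carried the member's own symbol and 3 were found by their product description. The rows of a gene were summed.

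RNA-seq was run on 9 glands, 1 from each of 9 healthy female Lubo goats aged 1 month (n = 3), 12 months (n = 3) and 24 months (n = 3). The animals carried no engineered allele and were untreated apart from the fast and the xylazine anaesthesia that preceded slaughter in every group, and all were kept alike with free access to feed. RNA came from whole frozen glands, so that acinar, ductal, immune and other cells were measured together, and the libraries were made from total RNA after removal of ribosomal RNA. Values below are expected counts, as RSEM estimates them, or CPM, which are the same counts divided by the TMM-scaled size of their library.

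Mucins are very large glycoproteins whose serine- and threonine-rich repeats carry dense O-linked sugars. MUC19 and MUC5B are gel-forming: their chains are linked by disulfide bonds into long polymers that give saliva its viscosity, and MUC19 is the characteristic mucin of mucous acini in the submandibular gland of several mammals. MUC7 is a small secreted mucin that forms no gel and binds bacteria. ZG16B belongs to the jacalin-related lectin-like proteins and is stored and released with other salivary proteins. MUC1, MUC4 and MUC20 instead span the apical membrane of epithelial cells and form part of the glycocalyx.

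The libraries held between 11546808 and 24901065 expected counts, and 3 counts corresponded to 0.145 to 0.19 CPM. One library stood apart from the other 8. In the library labelled 1-month replicate 2 most acinar markers were low. AQP5, the water channel of acinar cells, was at 0.493 CPM there. It was at 128 and 217 CPM in the other 1-month libraries and at 467 to 1050 CPM at 12 and 24 months. The acinar list summed to 74.8 CPM in that library (10 of its 11 genes above 3 counts), to 1450 and 2240 CPM in the other 1-month libraries, and to between 13700 and 31600 CPM in the older groups. Thymocyte markers (10 genes, such as RAG1 and CD3D) went the other way, at 10100 CPM in 1-month replicate 2, 1480 and 3020 CPM in the other 1-month libraries, and 6.6 to 20.6 CPM at 12 and 24 months. Some other gland markers were highest of the 1-month group in that library. These included the duct keratin KRT19 (123 CPM, against 88.6 and 87.4 CPM) and the myoepithelial KRT14 (52.8 CPM, against 10.6 and 10.8 CPM). The acinar gene BPIFA1 was at 1.41 CPM, against 0.37 and 1.11 CPM. The duct list still summed to 150 CPM there, against 1110 and 609 CPM. By its acinar and thymocyte lists the library went against its gland label. Each comparison with the 1-month group is given with and without it. Since glands were measured whole, fewer secretory cells and less RNA per secretory cell cannot be told apart.

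**Figure D1:**
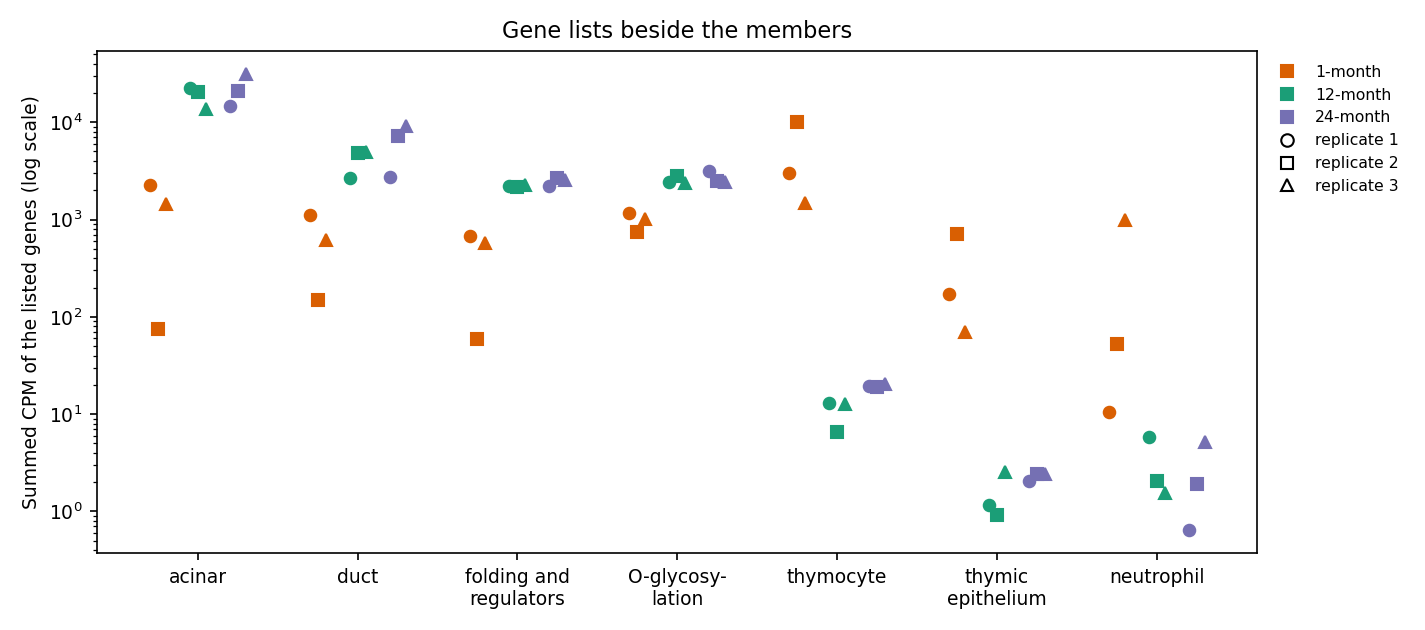
Summed CPM (log scale) of 7 gene lists in each library, coloured by age and shaped by replicate. The square of the 1-month group lies lowest for the acinar, duct and mucin folding lists and highest for the thymocyte list, and the older libraries lie between 13700 and 31600 CPM for the acinar list and at or below 20.6 CPM for the thymocyte list.

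MUC19 was measured at 23100, 50.9 and 16990 CPM at 1 month, at 78130, 152100 and 72610 CPM at 12 months and at 141500, 95250 and 84540 CPM at 24 months. All 6 older libraries lay above every 1-month library, and the 12- and 24-month groups overlapped. The group means were 13400 ± 11900, 101000 ± 44400 and 107000 ± 30300 CPM (SD, n = 3 each). As a share of all counts in a library, MUC19 took 3.11% and 2.32% in 1-month replicates 1 and 3, and 7.32% to 13.2% in the older libraries. In 1-month replicate 2 its share was 0.00554% (95% exact binomial interval 0.00519% to 0.00589%, which covers counting error only).

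ZG16B followed the same order. Its levels were 14100, 10.0 and 7548 CPM at 1 month, 34030, 46390 and 33690 CPM at 12 months, and 42820, 48630 and 42830 CPM at 24 months. The older groups lay above the 1-month group and overlapped with each other, with means of 38000 ± 7240 and 44800 ± 3350 CPM (SD, n = 3 each) against 7220 ± 7050 CPM. Between 3.19% and 4.04% of all counts in the older libraries came from the rows summed as ZG16B. These include rows of LOC102189536 and LOC108633841, whose products are described as ZG16B or ZG16B-like.

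MUC7 had another order. It was at 20690, 3.17 and 10680 CPM at 1 month, at 21290, 11060 and 22540 CPM at 12 months and at 4362, 9038 and 6396 CPM at 24 months. Apart from 1-month replicate 2, the 1-month libraries lay within the range of the 12-month group or just under it, and every 24-month library lay below every 12-month library. The means were 18300 ± 6300 CPM at 12 months and 6600 ± 2340 CPM at 24 months (SD, n = 3 each). MUC7 took 2.79% and 1.46% of the counts in 1-month replicates 1 and 3, 0.959% to 2.31% at 12 months and 0.358% to 0.751% at 24 months.

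**Figure D2:**
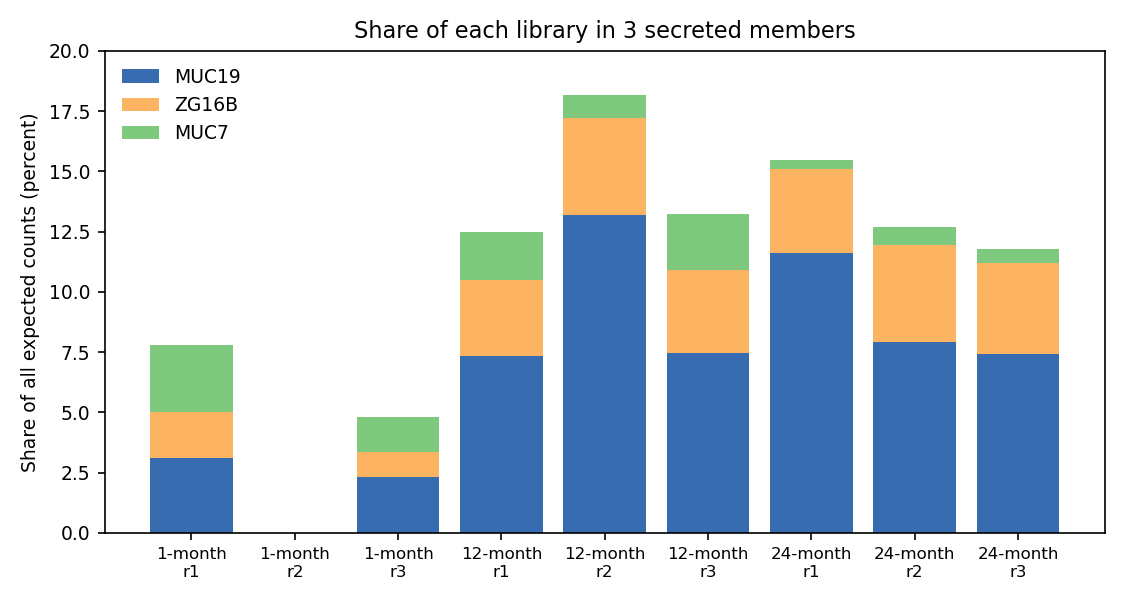
Share of each library's expected counts (percent, bars from 0) that came from MUC19, ZG16B and MUC7, for the 9 libraries. The 3 genes together took 11.8% to 18.2% in the older libraries, 7.80% and 4.81% in 1-month replicates 1 and 3, and no visible share in 1-month replicate 2; counts are not corrected for transcript length, so the sizes of different genes are not compared.

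MUC5B, the other gel-forming member, varied widely among animals of one age. It was under 1 CPM in every 1-month library (0.666, 0.212 and 0.417 CPM, from 10.6, 4.05 and 6.58 expected counts). In the 12-month group it was at 20.5 and 27.3 CPM in replicates 1 and 2 but at 0.961 CPM in replicate 3, and at 24 months at 0.523, 17.1 and 137 CPM. So 2 of the 6 older libraries, 12-month replicate 3 and 24-month replicate 1, stood near the 1-month level (17.98 and 9.63 expected counts), while 24-month replicate 3 held 2654 expected counts. Acinar markers did not share one order with MUC5B: in 12-month replicate 3 the secreted enzymes LPO and CA6 were lowest of all older libraries (4350 and 4600 CPM), whereas SLC12A2, an ion cotransporter, was highest there (3510 CPM). In 24-month replicate 3 LPO (22600 CPM) and AQP5 (1050 CPM) were the highest of all libraries, and their part in the MUC5B values was not tested.

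Of the membrane-bound members, MUC1 was at 2.07, 1.09 and 1.45 CPM at 1 month, at 4.21, 4.95 and 3.89 CPM at 12 months and at 1.45, 8.82 and 11.7 CPM at 24 months. The 12-month group lay above the 1-month group, whereas 24-month replicate 1, one of the libraries low in MUC5B, lay within the 1-month range. MUC20 was at 3.22, 0.141 and 2.89 CPM at 1 month, at 10.6, 12.9 and 5.81 CPM at 12 months and at 7.5, 14.4 and 10.8 CPM at 24 months, so that all older libraries lay above every 1-month library.

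MUC4 was close to the limit of detection. It was at 0 expected counts in 1-month replicates 1 and 3, 12-month replicate 2 and 24-month replicate 2. In these libraries 3 counts corresponded to 0.188, 0.19, 0.164 and 0.145 CPM. Only 24-month replicate 3, at 0.619 CPM, was above 3 counts. MUC4 did not pass the filter on low counts in any comparison, so 6 of the 7 members were tested.

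**Figure D3:**
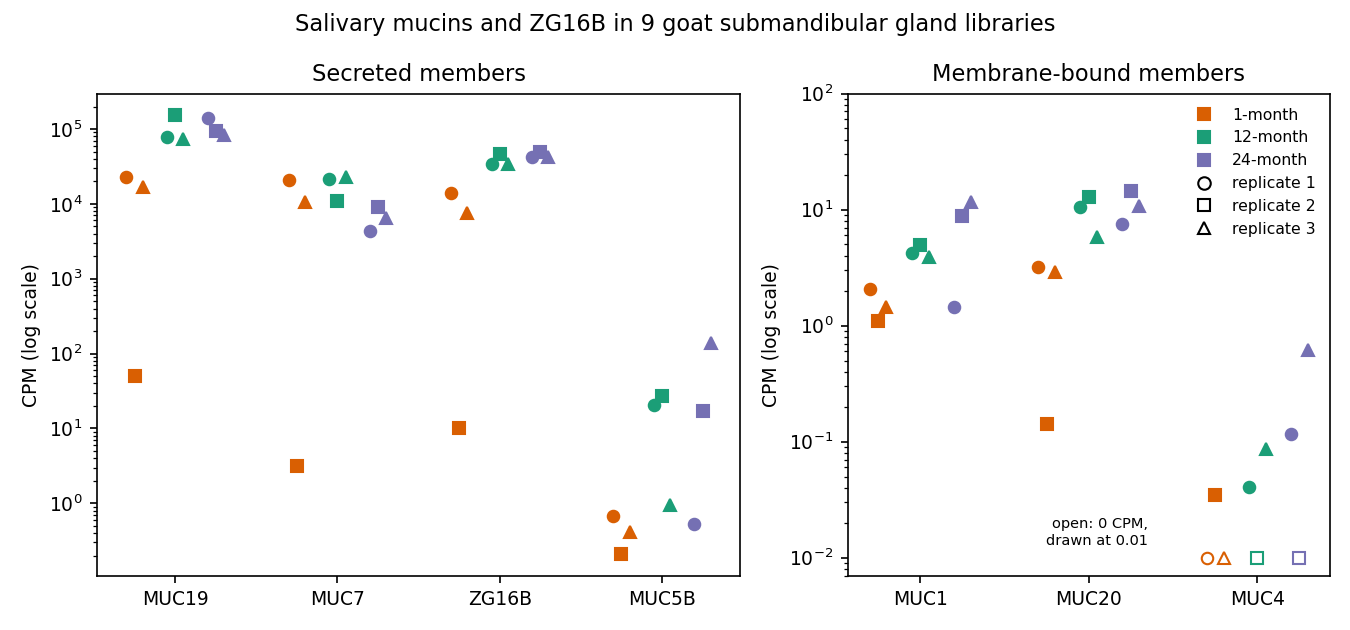
CPM (log scale) of each member in each of the 9 libraries, coloured by age and shaped by replicate, with open symbols for 0 CPM drawn at 0.01. MUC19 and ZG16B of all 6 older libraries lie above those of the 1-month group, MUC7 of the 24-month group (4362 to 9038 CPM) lies below the 12-month group (11060 to 22540 CPM), and MUC5B of 2 older libraries lies with the 1-month group under 1 CPM.

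The first comparison asked how the members differ between glands of 1-month-old kids and of 12-month-old goats. With all 6 libraries, 1 of 6 tested members was called (edgeR quasi-likelihood test, Benjamini-Hochberg adjusted p under 0.05 over all genes and an absolute log2 fold change over 2), against 11.7% of the 14882 genes tested. This was MUC5B, which rose by 5.24 ± 1.22 on the log2 scale (SE, adjusted p = 0.031). It was higher in 3 of 3 libraries at 12 months than in any at 1 month. In the same way 5 members, all but MUC7 and MUC4, did not overlap and were higher at 12 months, as were 26.6% of the genes tested. For MUC5B this order rested on few counts, 17.98 in 12-month replicate 3 and 10.61 in 1-month replicate 1. As shares of all counts these were 9.86e-05% (95% exact binomial interval 5.85e-05% to 0.000156%) and 8.97e-05% (4.64e-05% to 0.000166%), with overlapping intervals. MUC1 rose by 1.56 ± 0.42 (adjusted p = 0.045), under the fold threshold, so that 2 of 6 members passed the adjusted p alone, against 18.3% of all genes. Without any one of the 1-month replicates 1 and 3 or the 12-month libraries, MUC1 no longer passed (adjusted p from 0.069 to 0.16). Over all genes 2048, 1756, 0, 70 and 125 passed in these fits, in that order. The other fitted differences were 3.01 ± 1.68 for MUC19 (adjusted p = 0.23), 2.49 ± 1.72 for ZG16B (adjusted p = 0.32), 2.32 ± 0.90 for MUC20 (adjusted p = 0.11) and 0.90 ± 1.82 for MUC7 (adjusted p = 0.73), none past the test. Without any one of 1-month replicates 1 and 3 and 12-month replicates 1 and 2, the MUC5B call was lost (adjusted p = 0.070, 0.085, 0.093 and 0.10), with fitted differences between 4.64 and 5.63. Over all genes, 1633 of 15179, 1454 of 15145, 0 of 15341 and 70 of 15344 were called in these fits.

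The SE of MUC19 was 1.68 with 1-month replicate 2 and 0.47 without it. Without it, 2 of 6 members were called (12.5% of 15233 genes), MUC19 at 2.34 ± 0.47 (adjusted p = 0.010) and MUC5B at 4.83 ± 1.46 (adjusted p = 0.039). By the adjusted p alone, 5 of 6 members rose, when 21.1% of all genes rose and 43.2% passed in either direction: ZG16B by 1.82 ± 0.38 (adjusted p = 0.012), MUC20 by 1.68 ± 0.40 (adjusted p = 0.018) and MUC1 by 1.30 ± 0.36 (adjusted p = 0.031), besides MUC19 and MUC5B. MUC7 did not pass, at 0.23 ± 0.43 (adjusted p = 0.70), and its remaining 1-month values of 20690 and 10680 CPM overlapped with the 12-month group. With 2 libraries at 1 month, the spread is set mainly by the 12-month group.

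The second comparison set the same 1-month libraries against 24-month-old goats and so shares its controls with the first. With all 6 libraries, MUC5B was the 1 member of 6 that was called, against 13.4% of 14952 genes, with a rise of 6.97 ± 1.73 (adjusted p = 0.029). By contrast, 3 members, MUC19, ZG16B and MUC20, were higher at 24 months without overlap, as were 20.2% of the genes. The MUC5B groups overlapped, since 24-month replicate 1 (0.523 CPM) lay below 1-month replicate 1 (0.666 CPM). Without 24-month replicate 3 the MUC5B difference was 4.47 ± 1.34 (adjusted p = 0.10), and the call was also lost without 24-month replicate 2 (adjusted p = 0.064), 1-month replicate 1 (adjusted p = 0.055) or 1-month replicate 3 (adjusted p = 0.070). Over all genes, 309 of 15310, 553 of 15342, 1858 of 15311 and 1535 of 15267 were called in these fits. The differences of the other members were 3.14 ± 1.62 for MUC19 (adjusted p = 0.21), 2.78 ± 1.66 for ZG16B (adjusted p = 0.27), 2.54 ± 0.88 for MUC20 (adjusted p = 0.080), 2.39 ± 0.78 for MUC1 (adjusted p = 0.068) and -0.51 ± 1.68 for MUC7 (adjusted p = 0.86). MUC1 was called only without 24-month replicate 1 among the fits that left out a library (2.88 ± 0.53, adjusted p = 0.032, with 8.96% of genes called).

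Without 1-month replicate 2, 3 of 6 members were called between 1 and 24 months, when 14.1% of 15366 genes were. MUC19 rose by 2.52 ± 0.50 (adjusted p = 0.0077), ZG16B by 2.15 ± 0.47 (adjusted p = 0.011) and MUC5B by 6.57 ± 1.92 (adjusted p = 0.033). MUC20 rose by 1.94 ± 0.46 (adjusted p = 0.016), under the fold threshold, so that 4 of 6 members rose by the adjusted p alone, beside 13.8% of all genes that rose. MUC1 did not pass (2.16 ± 0.82, adjusted p = 0.079). MUC7 had the opposite sign, at -1.14 ± 0.47 (adjusted p = 0.098), and although it did not pass the test, every 24-month value lay below both 1-month values, as did 32.3% of all genes.

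The third comparison, between 12 and 24 months, used none of the 1-month libraries. No gene of 14286 was called (0%) or passed the adjusted p alone (0%) in the quasi-likelihood test, with 1561 genes at an unadjusted p under 0.05. MUC7 differed by -1.42 ± 0.38 between 12 and 24 months (edgeR, unadjusted p = 0.0042, adjusted p = 0.43), the lowest p among the members. It was also 1 of the 7.55% of genes whose 24-month values all lay below the 12-month group, and the mean of the 24-month group was 0.361 times that of the 12-month group. An exact permutation test of 3 against 3 libraries cannot go below p = 0.1, which MUC7 reached (two-sided, p = 0.1, 0.23 after Benjamini-Hochberg adjustment over 21 tests). DESeq2's Wald test, which passed 25 genes (0.175%) at an adjusted p under 0.05, gave MUC7 a change of -1.46 ± 0.35 (adjusted p = 0.020).

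The other members did not differ detectably between the older groups in the quasi-likelihood test. Their differences were 0.12 ± 0.37 for MUC19, 0.28 ± 0.27 for ZG16B, 0.20 ± 0.37 for MUC20, 0.80 ± 0.61 for MUC1 and 1.69 ± 1.40 for MUC5B, with adjusted p from 0.51 to 0.86. One library weighed on this comparison. Without 24-month replicate 1, 31.7% of 14582 genes passed the adjusted p, and 2 of 6 members with them: MUC7 fell by 1.19 on the log2 scale (SE 0.36, adjusted p = 0.041) and MUC1 rose by 1.28 ± 0.27 (adjusted p = 0.015). Neither reached the fold threshold, which 1.17% of the genes passed. Leaving out any one of the other 5 libraries passed no member, and 0 of all genes passed in each of those fits.

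**Figure D4:**
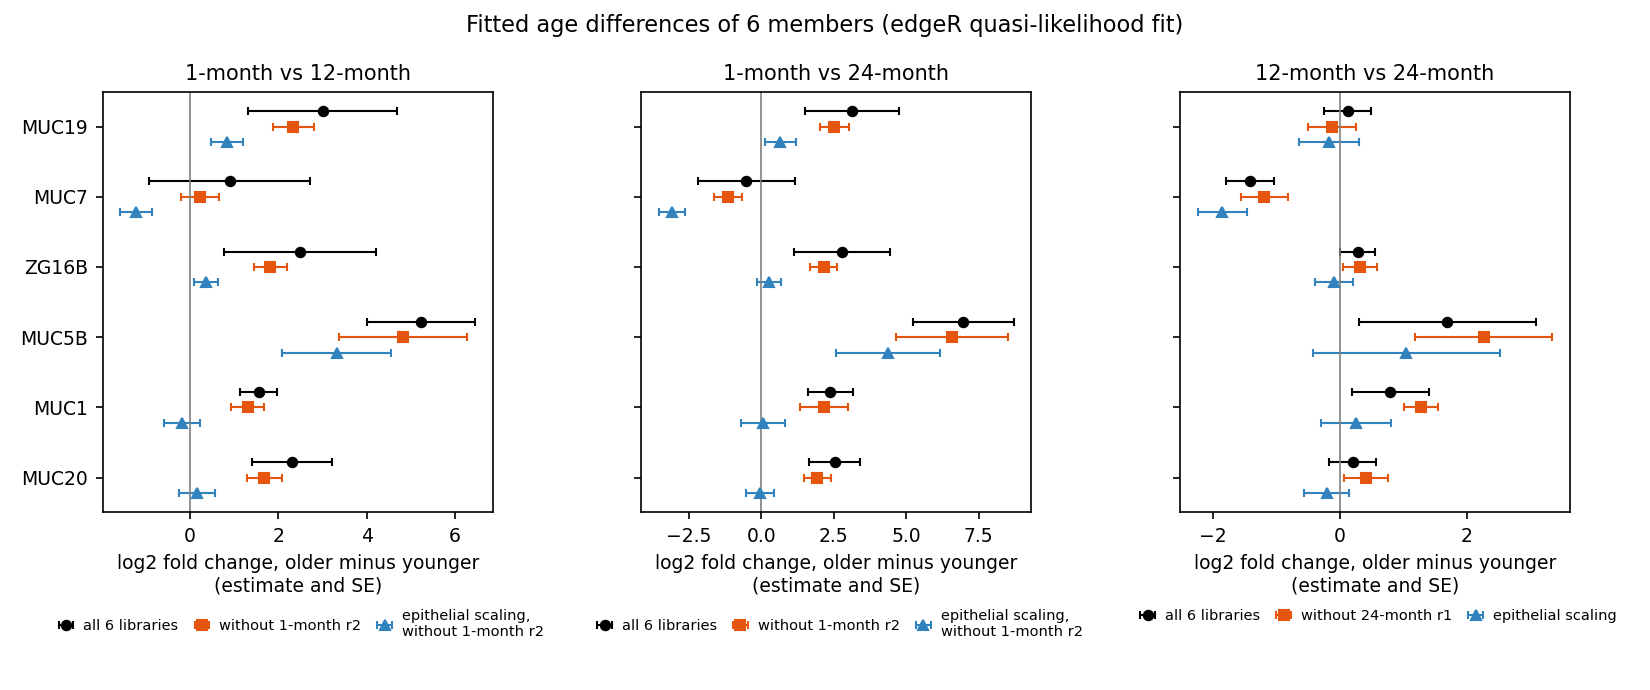
Fitted log2 fold change (older minus younger, with SE) of the 6 tested members for each pair of ages, with all 6 libraries (black), without the library named in the legend (orange) and with sizes taken from 12 epithelial genes (blue). Against 1 month, MUC19, ZG16B, MUC1 and MUC20 lie above 0 in black and orange and between -0.18 and 0.84 in blue, whereas MUC7 lies at -1.22 and -3.07 in blue. Between 12 and 24 months MUC7 lies at -1.42 in black.

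General epithelial genes also differed between ages: 12 of them, such as EPCAM, CDH1 and KRT8, summed to 922, 641 and 651 CPM at 1 month and to 2090 to 3060 CPM in the older libraries. In 1-month replicate 2 EPCAM was low (6.94 CPM, against 130 and 94.8 CPM), while KRT8 was the highest at 1 month (307 CPM, against 235 and 158 CPM). Among the 1-month libraries these genes thus did not follow the acinar list. Thymic epithelium genes summed to 173 and 69.1 CPM in 1-month replicates 1 and 3, and their part in the scaling was not tested. The members were also scaled on the 12 epithelial genes, without 1-month replicate 2, a combination added after the data were seen. It moved the median of all genes to -1.53 between 1 and 12 months and to -1.89 between 1 and 24 months, so that 76.9% and 69.9% of all genes were lower in the older group at an adjusted p under 0.05. Relative to the epithelial genes, MUC7 was lower by 1.22 ± 0.36 at 12 months (-1.22, adjusted p = 0.015) and by 3.07 ± 0.44 at 24 months (-3.07, adjusted p = 0.0019), which lay above the median of all genes at 12 months and below it at 24 months. MUC19 remained on the positive side at 0.84 ± 0.36 (adjusted p = 0.063) and 0.67 ± 0.52 (adjusted p = 0.27), and ZG16B at 0.36 ± 0.27 and 0.27 ± 0.42 (adjusted p = 0.25 and 0.58). MUC1 (-0.18 ± 0.42 and 0.07 ± 0.75) and MUC20 (0.16 ± 0.41 and -0.05 ± 0.48) were close to 0. Among the members MUC5B alone passed upward, by 3.33 ± 1.23 at 12 months (adjusted p = 0.038), where 1.16% of all genes did, and at 24 months it was at 4.38 ± 1.79 (adjusted p = 0.057). The signs of MUC7 and MUC1 between 1 and 12 months thus turned with the scaling, and so did that of MUC20 between 1 and 24 months.

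Ratios within a library do not depend on how its size is scaled, and MUC7 was set in this way against MUC19 and ZG16B. The ratio of MUC7 to MUC19 counts was 0.895, 0.0623 and 0.629 at 1 month, 0.273, 0.0727 and 0.31 at 12 months and 0.0308, 0.0949 and 0.0757 at 24 months. Apart from 1-month replicate 2, the 1-month values lay above all 12-month values, and 12-month replicates 1 and 3 lay above all 24-month values, whereas 12-month replicate 2 lay among the 24-month ones. Mean ratios were 0.762, 0.219 and 0.0671, the first without 1-month replicate 2. Set against ZG16B, MUC7 was at 1.47, 0.316 and 1.42 at 1 month, at 0.626, 0.238 and 0.669 at 12 months and at 0.102, 0.186 and 0.149 at 24 months. Here the 12-month group lay above the 24-month group in every library, by 3.51-fold in the mean, and without 1-month replicate 2 the 1-month group lay above both, by 2.83-fold and 9.92-fold.

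The ratio of ZG16B to MUC19 showed no such order. It was 0.61, 0.197 and 0.444 at 1 month, 0.436, 0.305 and 0.464 at 12 months and 0.303, 0.511 and 0.507 at 24 months, with means of 0.417 ± 0.208, 0.402 ± 0.0849 and 0.44 ± 0.119 (SD, n = 3 each). All groups overlapped. The ratio of MUC5B to MUC19 also overlapped between all ages, at 2.88e-05, 0.00416 and 2.45e-05 at 1 month, 0.000262, 0.00018 and 1.32e-05 at 12 months and 3.7e-06, 0.000179 and 0.00162 at 24 months. No p is given for ratios between chosen members.

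The secreted members as a set were also compared with the membrane-bound ones within each library. The 4 secreted members summed to 57890, 64.3 and 35220 CPM at 1 month, 133500, 209600 and 128800 CPM at 12 months and 188600, 152900 and 133900 CPM at 24 months. The 3 membrane-bound members summed to 5.29, 1.27 and 4.34 CPM, 14.8, 17.9 and 9.78 CPM, and 9.07, 23.2 and 23.1 CPM at the same ages. Both sums were higher in all older libraries than in any 1-month library. The mean log2(CPM + 1) of the secreted members exceeded that of MUC1 and MUC20 by 8.99, 2.25 and 8.58 at 1 month, by 9.57, 9.56 and 9.13 at 12 months and by 9.11, 8.74 and 9.26 at 24 months. Without 1-month replicate 2 these differences averaged 8.79, 9.42 and 9.04, so the 12-month values lay above both 1-month values and the 24-month values overlapped with each of the other ages.

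**Figure D5:**
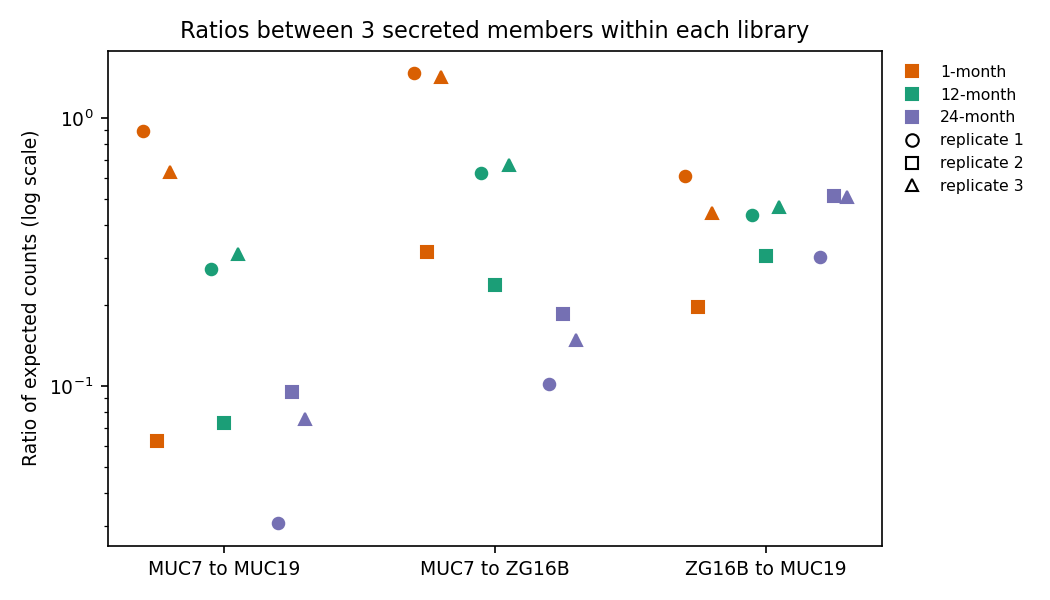
Ratio of expected counts (log scale) between pairs of secreted members in each library, coloured by age and shaped by replicate. MUC7 to MUC19 and MUC7 to ZG16B lie highest at 1 month (without its square, replicate 2) and lowest at 24 months in the mean, and ZG16B to MUC19 stays between 0.197 and 0.61 in all 9 libraries.

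For MUC7, MUC19 and ZG16B a single transcript carried most of the counts, whereas MUC20 counts were split between 2 RefSeq rows, with 17.1% to 62.0% on XM_018046032.1 in the older libraries. For MUC7, a new transcript without a symbol whose product is given as mucin-7-like (TCONS_00019661) held 72.7% to 95.9% of the counts, and the remainder lay on TCONS_00019660, the row named MUC7. The latter on its own was at 1386, 1504 and 1798 CPM at 12 months and at 1193, 667 and 508 CPM at 24 months. Its groups did not overlap, as for 7.55% of all genes that lay lower at 24 months, and the share over all transcripts was not counted. Its difference was -0.97 ± 0.35 (unadjusted p = 0.032, adjusted p = 0.86 over transcripts, edgeR). The nameless row was at 19900, 9559 and 20740 CPM at 12 months and at 3169, 8371 and 5888 CPM at 24 months (-1.50 ± 0.50, adjusted p = 0.86). Whether these are 2 forms or 2 copies of the gene was not tested.

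MUC19 counts lay mainly on a new transcript, TCONS_00017200, with 8.08% to 22.0% on the RefSeq transcript XM_018049032.1. The RefSeq share was 15.8%, 11.8% and 8.08% at 24 months and 16.1%, 19.3% and 16.6% at 12 months, so that the 24-month group lay below the 12-month group. ZG16B lay to 87.7% to 97.8% on TCONS_00071914, and most of the remainder on a RefSeq transcript of a second locus, LOC102189536, described as ZG16B. Reads shared between such similar rows may have been split by RSEM, and the levels of the separate rows are therefore uncertain. In tests of single transcripts, 0 of 11, 0 of 11 and 0 of 14 member transcripts were called at 1 against 12, 1 against 24 and 12 against 24 months (2.74%, 1.5% and 0% of all transcripts), with 3, 2 and 2 of them at an unadjusted p under 0.05 (edgeR).

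Of 14 listed genes that fold mucins or drive the secretory cell programme, 10 were tested between 1 and 12 months. With all libraries 1 was called (11.7% of all genes), CREB3L1 (2.26 ± 0.57, adjusted p = 0.039), a regulator of secretory capacity. Without 1-month replicate 2 CREB3L1 stayed under the fold threshold, while 2 of 10 were called (12.5% of all genes) and 8 of 10 rose by the adjusted p (21.1% of all genes), with a median over the list of 1.81 beside -0.01 for all genes. AGR2, the disulfide isomerase needed for mucin folding, was at 111, 0.282 and 63.5 CPM at 1 month, 462, 312 and 354 CPM at 12 months and 485, 287 and 102 CPM at 24 months, and without 1-month replicate 2 it rose by 2.11 ± 0.31 to 12 months (adjusted p = 0.0038). SPDEF, a transcription factor of mucous and goblet cells, rose by 1.87 ± 0.21 to 12 months (adjusted p = 0.0019) and by 2.68 ± 0.43 to 24 months (adjusted p = 0.0034) in the same fits. Between 1 and 24 months, 2 of 10 were called with all libraries (CREB3L1 and FOXA3, the latter at 3.63 ± 1.07, adjusted p = 0.0495, beside 13.4% of all genes) and 5 of 10 without 1-month replicate 2 (14.1% of all genes). Scaled on epithelial genes, the list's medians were 0.31 and 0.12 (-1.53 and -1.89 for all genes), with AGR2 the 1 gene that rose (0.65, adjusted p = 0.042, to 12 months) and FCGBP lower in both (-1.37 and -1.48). No gene of the list passed between 12 and 24 months.

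Of 25 listed enzymes that build the O-linked sugars, 22 were tested between 1 and 12 months with all libraries, where 6 passed the adjusted p (18.3% of all genes), 3 higher and 3 lower, and 2 were called (11.7% of all genes). Called upward was GALNT7 (2.2 ± 0.47, adjusted p = 0.025), one of the transferases that place the first sugar, and called downward was B3GNT3 (-3.90 ± 0.60, adjusted p = 0.012), which extends core structures. Without 1-month replicate 2, ST6GALNAC1, which caps chains with sialic acid, rose by 2.37 ± 0.28 to 12 months (adjusted p = 0.0021) and by 3.24 ± 0.38 to 24 months (adjusted p = 0.00079), and it was the 1 enzyme of the list that also rose when scaled on epithelial genes (0.88, adjusted p = 0.013, and 1.30, adjusted p = 0.017). In the fit to 12 months without 1-month replicate 2, 18 of 23 tested enzymes passed the adjusted p, 13 higher and 5 lower (43.2% of all genes). Of these, 4 were called, 1 higher and 3 lower (12.5% of all genes). C1GALT1, the core 1 synthase, fell by 2.01 on the log2 scale there (adjusted p = 0.00064) and GCNT4, a core 2 branching enzyme, by the same amount as rounded (adjusted p = 0.0050). Between 1 and 24 months with all libraries 5 of 22 were called (13.4% of all genes), GALNT6 (3.05) and GALNT12 (2.65) higher and C1GALT1, GCNT4 and B3GNT3 lower. The list's median without 1-month replicate 2 was 0.73 between 1 and 12 months and 0.77 between 1 and 24 months, and it turned to -0.80 and -1.18 under epithelial scaling, beside -1.53 and -1.89 for all genes.

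Among 15 genes of granule release, all tested, 3 were called between 1 and 12 months with all libraries, against 11.7% of all genes. SYTL5, a granule-docking protein of the synaptotagmin-like family, rose by 4.01 ± 0.54 (adjusted p = 0.0094) and RAB3D, a small GTPase on secretory granules of exocrine acini, by 2.25 ± 0.62 (adjusted p = 0.0497), while UNC13D, a priming factor best known from cytotoxic lymphocytes, fell by 3.98 (SE 0.63, adjusted p = 0.012). The list's median was 0.23, and -1.45 under epithelial scaling without 1-month replicate 2, close to the -1.53 of all genes, where SYTL5 still rose (2.21, adjusted p = 0.0050).

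Of 16 other mucins listed, 13 were found and 6 tested between 1 and 12 months, with none called (11.7% of all genes) or past the adjusted p (18.3%). Without 1-month replicate 2, 4 of 7 tested passed the adjusted p at 12 months, 3 higher and 1 lower (43.2% of all genes). Of the 7, 1 was called at 12 months (12.5% of all genes) and 2 at 24 months (14.1%). MUC16, a membrane mucin, was at 4.09, 0 and 4.7 CPM at 1 month and at 22.1 to 45.9 CPM in all 6 older libraries, and without 1-month replicate 2 it was called higher in both older groups (2.78 ± 0.41, adjusted p = 0.0040, and 3.07 ± 0.43, adjusted p = 0.0019). Scaled on epithelial genes it was at 1.24 (adjusted p = 0.025) and 1.03 (adjusted p = 0.059). The gel-forming MUC5AC was at 0.777, 1.41 and 1.03 CPM at 1 month, at 9.85, 0.99 and 4.02 CPM at 12 months and at 12.3, 1.24 and 10.4 CPM at 24 months. With all libraries it was the 1 of 7 tested that was called between 1 and 24 months (2.98 ± 0.83, adjusted p = 0.043), beside 13.4% of all genes. Its 24-month replicate 2 lay within the 1-month range. MUC2, the intestinal gel-forming mucin, reached at most 0.413 CPM, and ZG16, the intestinal relative of ZG16B, at most 0.247 CPM.

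The partners of the membrane mucins, such as the receptor kinases ERBB2 and ERBB3, numbered 8 and were all tested. With all libraries none was called between 1 and 12 months (11.7% of all genes) and 1 between 1 and 24 months (13.4% of all genes). This was ERBB2 (2.90 ± 0.80, adjusted p = 0.041), which was at 87.6, 7.92 and 66.1 CPM at 1 month and at 193 to 499 CPM in the older libraries. From 1 to 12 months EGFR rose and the matrix metalloprotease MMP14, which can shed MUC1, fell by the adjusted p alone (1.29, adjusted p = 0.036, and -1.65, adjusted p = 0.015). Scaled on epithelial genes, ERBB2 was at -0.04 and 0.33 and no partner passed the test upward.

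The genes whose log2(CPM + 1) ran most nearly parallel to each member over the 9 libraries were picked among 14168 genes with a mean CPM of at least 1. All correlations (Pearson's r) are descriptions over the same libraries, and 1-month replicate 2 was the lowest of them for MUC19, ZG16B and MUC7. For MUC19 they were SORBS2 (r = 0.999), EHF, an epithelial ETS factor (r = 0.997), and TBX3 (r = 0.996), and in the 6 older libraries alone r was 0.895, 0.639 and 0.715. ZG16B ran with TFCP2L1, NR3C2 (the mineralocorticoid receptor) and SHANK2 (r = 0.997, 0.997 and 0.996, and 0.609, 0.552 and 0.515 in the older libraries). MUC7 ran with DLC1, PTPRB and DGKB (r = 0.982, 0.981 and 0.975), but at r = 0.402, 0.657 and 0.557 without 1-month replicate 2. MUC20 ran with ANO10, AOX1 and P2RX4 (r = 0.986, 0.984 and 0.977), and all 3 kept at least 0.883 in the older libraries.

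For MUC5B and MUC1 the correlations were about as high without 1-month replicate 2, between 0.939 and 0.98. DUSP23, ENKD1 and an espin-like gene, LOC108637778, ran with MUC5B at r = 0.98, 0.954 and 0.947 over 9 libraries and at 0.974, 0.959 and 0.917 over the 6 older ones, although DUSP23 itself ranged only from 1.92 to 5.93 CPM. C2CD4D, SHBG and MISP ran with MUC1 at r = 0.969, 0.968 and 0.957, and at 0.954, 0.95 and 0.923 over the older libraries. MUC5B and MUC1 also ran with each other (r = 0.902 over 9 libraries, 0.89 over 8 without 1-month replicate 2 and 0.84 over the 6 older ones). MUC19 and ZG16B were correlated at r = 0.995, 0.958 and 0.656 over the same sets. MUC7 and MUC19 stood at r = 0.908 over 9 libraries but at -0.403 over 8 and at -0.599 over 6. For MUC4 the nearest genes were LOC102186926 (a KIF1A-like kinesin), TMEM59L and C21H14orf79 (r = 0.96, 0.936 and 0.924), and MUC4 exceeded 3 counts in 24-month replicate 3 only.

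Markers of other cell types moved with age beside the members. All 10 thymocyte genes were called lower at 12 and 24 months than at 1 month, as were 9.53% and 9.16% of all genes. The list medians were -8.15 and -7.81. With 1-month replicate 2 left out all 10 were still called lower (-6.56 and -6.38), beside 10.4% and 9.74% of all genes. The 4 tested thymic epithelium genes, such as FOXN1 and PRSS16, were likewise all called lower. Neutrophil genes summed to 977 CPM in 1-month replicate 3, to 10.5 and 52.4 CPM in the other 1-month libraries and to at most 5.83 CPM in the older groups. Between 12 and 24 months the plasma cell gene JCHAIN was at 2420 to 2780 CPM and 746 to 1790 CPM, whereas MZB1, of the same list, overlapped (18.1 to 25 and 9.59 to 38.8 CPM), and neither passed the test. The duct gene KLK1, a kallikrein, was lowest of the older libraries in 12-month replicate 1 and 24-month replicate 1 (1780 and 2120 CPM), while the duct keratin KRT19 was higher in 12-month replicate 1 (296 CPM) than in the other 12-month libraries (139 and 130 CPM). Their part in the members' differences was not tested.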

How the data were processed

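Submandibular glands of 9 goats (3 per age) were measured by strand-marked total RNA-seq. The authors removed ribosomal reads with Bowtie2 2.2.8, aligned with TopHat2 2.1.1, assembled transcripts with Cufflinks and quantified them with RSEM; the deposited table holds expected counts per transcript, neither normalized nor corrected for length. The genome build is not given in the sources used here. Of the 42686 RefSeq identifiers among 52739 rows, 99.92% matched RefSeq annotation of assembly ARS1.2, used for names only; 4 symbols that had turned into dates were not used. Transcript rows were summed to 21663 genes, with members and listed genes lacking a symbol found by product description.

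Counts were rounded and each pair of ages was fitted separately in edgeR 4.0.16 (R 4.3.3; filterByExpr, TMM, glmQLFit, glmQLFTest) without pairing, with Benjamini-Hochberg adjustment over all genes and calls at adjusted p under 0.05 and absolute log2 fold change over 2. SE is the log2 fold change divided by the square root of F. Log2(CPM + 1) values were compared by exact permutation in scipy 1.17.1. The tests were tested on simulated data, by an adjusted p under 0.05 without the fold threshold. Few genes were changed in these data, with 46 to 50 tested for each size of change. Counts were drawn independently for each gene, so no library stood apart as 1-month replicate 2 does. Of genes changed by 2 on the log2 scale, 18.4%, 8.16% and 68.8% passed at 1 against 12, 1 against 24 and 12 against 24 months. Of genes changed by 3, 71.4%, 71.4% and 91.7% passed. Unchanged genes that passed numbered 8, 7 and 13. The share that would also be past the fold threshold was not counted. Since the simulated setting differs from the data, these rates cannot be carried over to the members.

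Named were all members, listed genes (those called with the largest change, and fixed ones such as AGR2, SPDEF, MUC5AC, MUC2 and ZG16) and the 3 genes most correlated with each member. The members and lists were chosen with earlier results of these data known. Alternatives were other size factors (DESeq2's, upper quartile, totals, epithelial genes), no filter, DESeq2 1.42.0, edgeR's exact test, all 9 libraries in one fit, the replicate block and leaving out each library; chosen after seeing the data were scalings without 1-month replicate 2, acinar scaling and symbol rows only. Replicates are separate animals. Sequences of the members are not used here.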

Additional observations from a re-analysis of the deposited data

How the results depend on the processing

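With all 3 libraries at 1 month, the SE of MUC19, ZG16B and MUC7 lay between 1.62 and 1.82 on the log2 scale, and none of these members passed against either older age. Of the fits of single members under the alternatives, 253 kept direction and side of the threshold, 20 newly passed, 23 no longer passed and 22 changed sign.

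At 1 against 12 months, 1 of 6 members was called (11.7% of all genes) and 2 passed the adjusted p (18.3%). DESeq2 called 2 (15.5% of all genes). A fit of all 9 libraries called 0 and passed 0, when 2062 and 3591 of 15191 genes did. Acinar scaling without 1-month replicate 2 called 0 and passed 1, when 5288 and 12275 of 15233 genes did. That member was MUC7, which was lower (-1.34 ± 0.35, adjusted p = 0.0092, edgeR), while MUC5B no longer passed (3.3 ± 1.32, adjusted p = 0.051). The upper quartile, library totals, epithelial scaling and no filter each passed 1, MUC5B upward. The genes that passed in these fits were 2551, 3488 and 10691 of 14882, and 2537 of 18635 without the filter. Leaving out 1 library gave 0 to 2 calls and 0 to 5 passing members, when 0 to 1904 genes were called and 0 to 6588 passed. MUC7 changed sign under epithelial scaling (-0.63, and -1.22 without 1-month replicate 2) and acinar scaling without 1-month replicate 2 (-1.34), as did MUC1 (-0.73, -0.18 and -0.27). At 1 against 24 months, 1 member was called (13.4% of all genes) and 1 passed (17.6%). DESeq2 called and passed 4 (17% of all genes called, 27.1% passed). The exact test of edgeR called and passed 3, when 2545 and 3816 of 14952 genes did. The fit of all 9 libraries also called and passed 3, when 2374 and 4400 of 15191 genes did. Acinar scaling without 1-month replicate 2 called and passed 2, MUC5B higher (4.81) and MUC7 lower (-2.76), when 5841 and 10149 of 15366 genes did. Leaving out 1 library gave 0 to 3 calls and 0 to 4 passing members, when 309 to 2169 genes were called and 309 to 4294 passed. MUC7 changed sign without 1-month replicate 1 (0.43) and with symbol rows only (0.43), with fits that left out one library between -1.14 and 0.43, and MUC1 (-0.49, epithelial scaling) and MUC20 (-0.053, epithelial scaling without 1-month replicate 2) did so as well. At 12 against 24 months, where 0 members passed, DESeq2 passed 1 (0.175% of all genes). Leaving out 1 library passed 0 to 2 members, when 0 to 4622 genes passed. MUC19 changed sign with library totals (-0.054), with epithelial scaling (-0.17) and without one library (-0.12 to 0.55), ZG16B and MUC20 with epithelial scaling (-0.094 and -0.21), and MUC5B (-0.88, without 24-month replicate 3, to 2.31) and MUC20 (-0.11 to 0.47) without one library. The cause of these changes was not tested.

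Over all genes, leaving out 12-month replicate 1, 2 or 3 lowered the 1739 calls of 1 against 12 months to 0, 70 and 125, and leaving out 24-month replicate 2 or 3 lowered the 2005 calls of 1 against 24 months to 553 and 309, with fewer libraries in each fit. Epithelial scaling of all libraries raised them to 9241 and 10682. Library totals moved the median of all genes to -0.51 and -0.71, and acinar scaling without 1-month replicate 2 moved it to -1.62 and -1.63.

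Replicate numbers are shared by the ages, but replicates are separate animals. Deviations of same-numbered libraries from their group means were correlated at r = -0.12, -0.121 and -0.109 between 1 and 12 months. They stood at 0.422, 0.197 and -0.234 between 1 and 24 months, and at -0.0786, -0.118 and 0.00128 between 12 and 24 months. Libraries of different number ranged from -0.423 to 0.352. With 3 libraries per age such deviations depend on one another, so these correlations cannot decide on a pairing. With the replicate block, 0 members were called and 0 passed against 1 month at either age, MUC7 at 1 against 24 months was at 0.32 and MUC5B at 12 against 24 months at -0.28. Calls over all genes went from 1739 to 896, from 2005 to 1800 and from 0 to 7.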
